A study of Homo sapiens with 4 samples.

Results

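Glycolysis and its connection to oxygen sensing were followed through 41 genes, of 34080 genes with a matched transcript, in HK-2 cells with and without expression of PRCC-TFE3. The 41 genes were listed by name and pathway, with no measured value in the rule. They encode the enzymes that turn glucose into pyruvate, the lactate dehydrogenases and lactate transporters, the pyruvate dehydrogenase subunits with their kinases, and the HIF pathway with a few of its well known targets. HK-2 is an immortalised human kidney cell line derived from proximal tubule. All 4 libraries came from HK-2 cells carrying a doxycycline-inducible HA-PRCC-TFE3, the HA-tagged kidney cancer fusion of PRCC and the transcription factor TFE3. Doxy(+) libraries 1 and 2 came from cells given 0.2 microg/ml doxycycline for 24 h, and Doxy(-) libraries 1 and 2 from the same kind of cells without it. Cells lacking the transgene but given doxycycline were not analysed here, so an effect of the drug and an effect of the fusion cannot be told apart. Whether the inducible cells are 1 clone is not given in the sources used here. The sources also name no low-oxygen culture.

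Glycolysis splits glucose into pyruvate and yields ATP without oxygen. Lactate dehydrogenase then interconverts pyruvate and lactate. The pyruvate dehydrogenase complex instead turns pyruvate into acetyl-CoA inside the mitochondrion and is switched off by the pyruvate dehydrogenase kinases. When oxygen is present, EGLN enzymes hydroxylate the HIF alpha subunits HIF1A and EPAS1, and VHL marks them for destruction. When oxygen is scarce, or when VHL is lost as in clear cell kidney cancer, HIF alpha pairs with ARNT and turns on many glycolytic genes. The RNA of HIF1A therefore says little about the protein, and protein was not measured.

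The reads assigned to genes numbered between 12654233 and 15012743 per library. The 41 genes took 1.59% and 1.56% of them in Doxy(-) and 1.67% and 1.66% in Doxy(+). TFE3, whose transcripts collect reads of the transgene, was at 66.9 and 69.0 CPM without doxycycline and at 367 and 322 CPM with it, a log2 fold change of 2.34 (edgeR adjusted p = 4.78e-05). Both libraries labelled Doxy(+) were thus far above both labelled Doxy(-). CPM is the count of a gene per 1000000 gene reads after TMM scaling, and TPM is a level corrected for transcript length that sums to 1000000 per library. Of the 8 markers of proximal tubule transport examined, 2 reached a mean of 1 CPM. These were GGT1, with levels from 68.72 to 86.05 CPM, and SLC5A2, with levels from 2.93 to 4.07 CPM. GGT1 was higher in Doxy(+), by a log2 fold change of 0.25 (edgeR adjusted p = 0.0410). SLC34A1 went the opposite way, by -1.64 on the log2 scale, but missed the 0.05 limit (edgeR adjusted p = 0.0779, SE 0.51). Neither SLC5A2, with a difference of -0.06, nor CUBN, with 0.36, passed it (edgeR adjusted p = 0.891 and 0.683). ANPEP was too low to be tested. The tubule markers thus showed no common direction. GGT1 made up most of the group sum, which lay between 74.55 and 90.52 CPM. LRP2, AQP1 and SLC22A6 were at or near 0, so part of the markers of the labelled origin was absent or nearly so. Of the 7 renal epithelial markers measured, 6 were detected, and their summed level was 2185 CPM in each Doxy(-) library against 1822 and 1839 CPM in Doxy(+). KRT8, KRT18, KRT19, CDH2 and CDH6 were lower in Doxy(+), with log2 fold changes of -0.24, -0.24, -0.41, -0.45 and -0.94. Their edgeR adjusted p lay between 0.000237 and 0.0142. PAX8 differed by 0.06 (edgeR adjusted p = 0.217). No endothelial or leukocyte marker reached 1 CPM, while the 5 fibroblast markers summed to between 186 and 204 CPM, of which LUM gave 160 to 185 CPM. The 6 markers of other nephron segments summed to 0.621 and 0.550 CPM in Doxy(-) and to 3.27 and 2.24 CPM in Doxy(+). The part of these marker levels in the results was not tested. In bulk RNA, fewer cells of a type and less RNA per cell cannot be told apart.

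At an adjusted p under 0.05 by the edgeR quasi-likelihood test, 8 of the 40 testable genes were higher in Doxy(+) and 2 were lower. CA9, a carbonic anhydrase and classical HIF target, had 0 counts in all 4 libraries, which allows up to 0.233 CPM at the depth of the shallower libraries, and was not tested. The share changed was 25%, against 19.3% of the 13569 genes tested, where 9.76% were higher and 9.53% were lower. The share lies near the background, and the changes were small and in mixed directions. The median log2 fold change was 0.01 over the 40 genes and 0.00 over all genes tested. PFKFB2 alone passed both the adjusted p limit and a log2 fold change of 1, which 1.98% of all genes did (1.5% in the higher direction), and no gene fell past both. The count of genes lower past both limits was also 0 with DESeq2 and limma. In the lower direction 1 gene, ALDOC, passed the fold limit at an unadjusted edgeR p under 0.05. In 24 of 40 genes the CPM of the groups did not overlap, against 61.1% of all genes. Without Doxy(+) 2 the calls fell to 5 higher and 1 lower, and without Doxy(-) 2 they were 8 higher and 4 lower. Over all genes, 647 were higher and 565 lower without Doxy(+) 1, against 1325 and 1293 with it, and 686 and 642 without Doxy(+) 2.

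**Figure D1:**
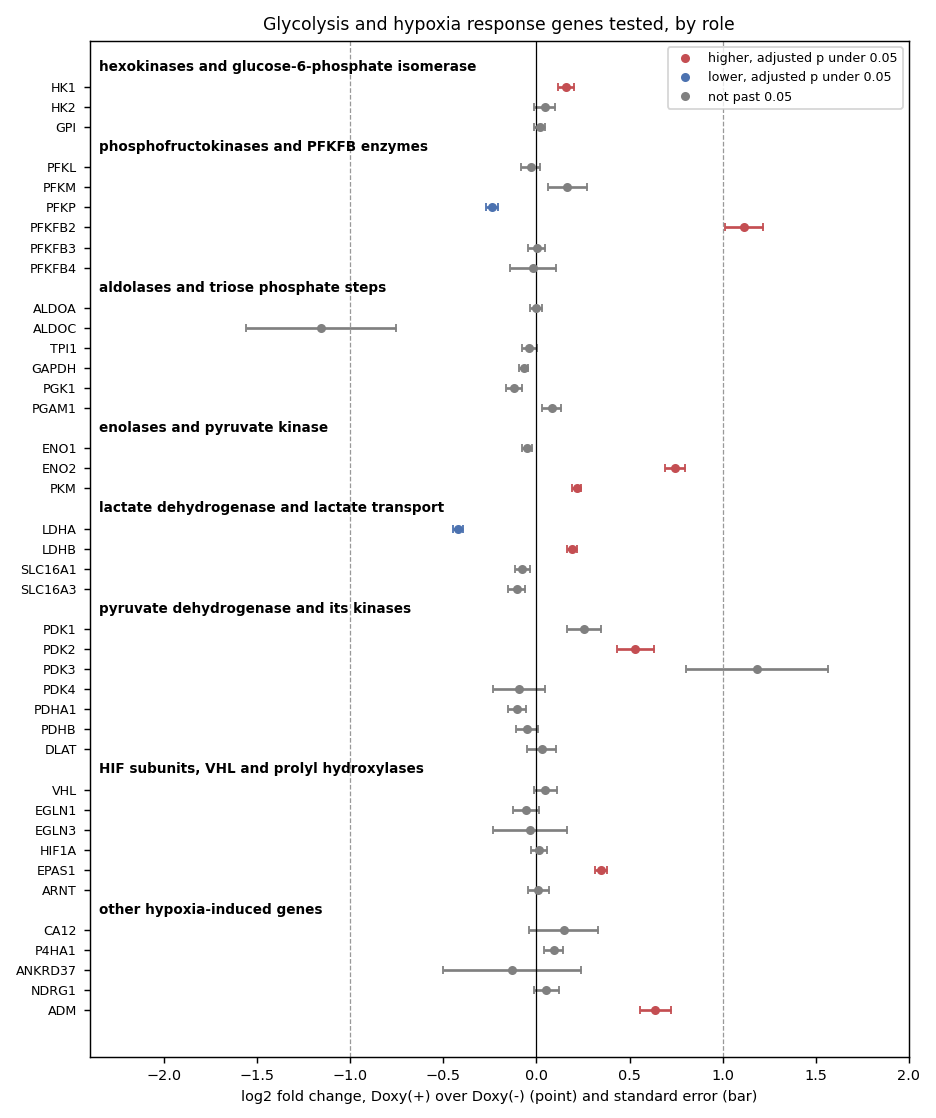
Log2 fold change of Doxy(+) over Doxy(-) (horizontal axis) for the 40 tested genes, grouped by role, with a bar of 1 standard error to either side from the edgeR fit and dashed lines at -1 and 1. Red and blue points passed an adjusted p of 0.05 as higher or lower and grey points did not. PFKFB2 stands at 1.11, LDHA at -0.42, and most of the grey points lie close to 0 apart from ALDOC and PDK3, whose bars are wide.

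The first steps capture glucose inside the cell. HK1, the housekeeping hexokinase that phosphorylates glucose (chr10:69269984-69401884, plus strand, hg38), was at 156 and 156 CPM without doxycycline and at 169 and 179 CPM with it. The Doxy(+) libraries were the higher pair, by a log2 fold change of 0.16 (edgeR adjusted p = 0.0472, SE 0.04). This call stood at the edge of the limit. It was lost when any 1 library was left out, with adjusted p of 0.0833 and 0.0735 without Doxy(-) 1 and 2 and of 0.109 and 0.290 without Doxy(+) 1 and 2, and over all alternatives the adjusted p ranged from 0.0456 to 0.290. HK2, the hexokinase induced by HIF and common in tumours, was at 44.2 and 43.2 CPM without doxycycline and at 45.7 and 44.3 CPM with it, a log2 fold change of 0.04 (edgeR adjusted p = 0.637). GPI, which converts glucose-6-phosphate to fructose-6-phosphate, differed by a log2 fold change of 0.02. On the TPM scale HK1 made up 87.0% and 87.1% of the HK1 and HK2 total in Doxy(-) and 88.1% and 89.2% in Doxy(+).

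Phosphofructokinase commits the sugar to glycolysis. PFKP, its platelet-type isozyme (chr10:3066333-3137718, plus strand), was at 394 and 404 CPM without doxycycline and at 342 and 335 CPM with it. Both Doxy(+) libraries lay below both Doxy(-) libraries, and PFKP fell by 0.24 on the log2 scale (edgeR adjusted p = 0.00472, SE 0.03). Without Doxy(+) 2 the value was -0.22 with an adjusted p of 0.0505. PFKL, the liver type, differed by -0.03 and PFKM, the muscle type, by 0.17, and neither passed the limit (edgeR adjusted p = 0.704 and 0.333). PFKM had 1 low library, Doxy(-) 2 at 53.3 CPM against 64.2 to 69.3 CPM in the others, and without Doxy(-) 1 its log2 fold change was 0.32 (adjusted p = 0.0271). Its exons overlap those of SENP1 on the opposite strand, which rose by a log2 fold change of 0.77 (edgeR adjusted p = 0.0253). The part of shared reads in these values was not tested. PFKP held 76.9% and 79.7% of the phosphofructokinase TPM in Doxy(-) and 73.5% and 73.4% in Doxy(+), and so remained the main isozyme in every library.

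The PFKFB enzymes make and break down fructose-2,6-bisphosphate, the strongest activator of phosphofructokinase. PFKFB2, the heart and kidney form (ENSG00000123836, chr1:207034366-207081024, plus strand), was at 41.6 and 34.7 CPM without doxycycline and at 87.0 and 77.9 CPM with it. Both Doxy(+) libraries were far above both Doxy(-) libraries. The log2 fold change was 1.11 (edgeR adjusted p = 0.00121, SE 0.10), the largest among the 10 genes that changed. Without Doxy(-) 2 it was 0.99 (adjusted p = 0.000338), under the fold limit. The transcript PFKFB2-202 carried most of the estimated reads, 435 and 419 without doxycycline against 910 and 812 with it. PFKFB2-201 carried 81.3 and 54.9 without doxycycline against 152 and 173 with it, so both transcripts were higher with doxycycline. The exons of PFKFB2 overlap YOD1 on the opposite strand, which was at 37.1 and 79.9 CPM in Doxy(-) and 71.6 and 45.6 CPM in Doxy(+) and did not separate the groups (log2 fold change -0.01, edgeR adjusted p = 0.990).

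PFKFB3, the hypoxia-inducible form that drives glycolysis in many tumours, was at 109 and 104 CPM without doxycycline and at 106 and 107 CPM with it, a log2 fold change of 0.00 (edgeR adjusted p = 0.989, SE 0.05). PFKFB4, a further hypoxia-inducible form, had overlapping groups at 16.0 and 14.8 CPM against 13.8 and 16.5 CPM. Its exons overlap those of UCN2 on the same strand, which fell from 25.5 and 20.4 CPM to 10.9 and 11.98 CPM (edgeR adjusted p = 0.00561), and the part of shared reads was not tested. PFKFB2 therefore took 19.6% and 17% of the TPM of these 3 genes in Doxy(-) and 34.2% and 30.8% in Doxy(+), a difference of 14.1 percentage points. PFKFB3 took 68.4% and 67.0% in Doxy(-) and 52.8% and 56.0% in Doxy(+). Shares were not tested, because the exact permutation test on 2 against 2 libraries cannot give a p below 0.333.

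**Figure D2:**
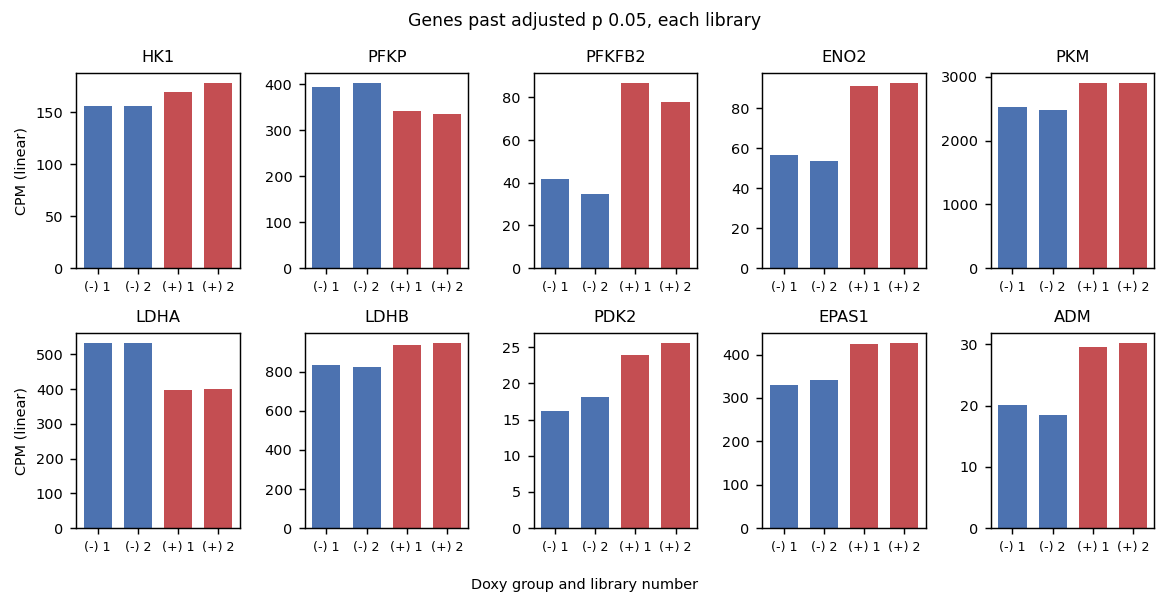
CPM on a linear axis from 0 for the 10 genes that passed an adjusted p of 0.05, with a bar for each library, Doxy(-) 1 and 2 in blue and Doxy(+) 1 and 2 in red. The groups do not overlap in any of the 10 panels, and Doxy(+) is the lower pair for LDHA and PFKP.

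None of the 6 genes of aldolase and the triose phosphate steps changed by edgeR. At an unadjusted p under 0.05 there were 3, DESeq2 called 1, GAPDH, and limma called 0. ALDOA, the main aldolase, was at 611 and 600 CPM without doxycycline and at 616 and 592 CPM with it. GAPDH, the dehydrogenase of the pathway, was the most abundant of the 41 genes at 4398 and 4294 TPM in Doxy(-) and 4273 and 4269 TPM in Doxy(+). Its CPM was 3683 and 3613 without doxycycline against 3481 and 3485 with it, a log2 fold change of -0.07 (edgeR adjusted p = 0.112, SE 0.02). The adjusted p was 0.0208 with DESeq2 and 0.0225 without Doxy(-) 2. PGAM1, the phosphoglycerate mutase, differed by 0.08 (edgeR adjusted p = 0.312), with 1 low library, Doxy(-) 2 at 1146 CPM, and without Doxy(-) 1 its value was 0.15 (adjusted p = 0.00498). TPI1, the triose phosphate isomerase, and PGK1, the phosphoglycerate kinase, differed by -0.04 and -0.12, and neither passed the limit. ALDOC, the brain aldolase, had a large but imprecise difference of -1.16 (edgeR adjusted p = 0.103, SE 0.40) at 1.32 and 1.91 CPM in Doxy(-) and 0.621 and 0.819 CPM in Doxy(+).

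Enolase and pyruvate kinase complete the pathway. ENO2, the neuronal enolase also found in kidney tumours (chr12:6913745-6923698, plus strand), was at 56.7 and 53.5 CPM without doxycycline and at 91.4 and 92.9 CPM with it. The Doxy(+) libraries were clearly the higher pair, by a log2 fold change of 0.74 (edgeR adjusted p = 0.000614, SE 0.05). ENO1, the ubiquitous enolase, was at 2810 and 2720 CPM without doxycycline and at 2665 and 2680 CPM with it, a log2 fold change of -0.05 (edgeR adjusted p = 0.266). Without Doxy(-) 2 its value was -0.07 with an adjusted p of 0.0427. ENO2 remained a minor enolase, with 1.64% and 1.55% of the TPM of the pair in Doxy(-) and 2.72% and 2.78% in Doxy(+). The quantifier divided the reads of ENO2 between its transcripts and copies of them under identifiers with no match. With those copies added, the ENO2 share was 3.18% and 3.04% without doxycycline against 5.26% and 5.39% with it. The same addition raised the TPM of TPI1 and PGK1 by factors of 1.997 and 1.998 and that of DLAT by 1.58, and their levels are uncertain to that extent.

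PKM, the pyruvate kinase gene (chr15:72199029-72231819, minus strand), was at 2523 and 2483 CPM without doxycycline and at 2905 and 2912 CPM with it. Both Doxy(+) libraries were higher, by a log2 fold change of 0.22 (edgeR adjusted p = 0.00264, SE 0.02). PKM makes M1 and M2 enzymes from mutually exclusive exons of 167 bases each, the M1 exon at chr15:72203022-72203188 and the M2 exon at chr15:72202454-72202620. The exons are printed because they are what separates the enzymes, 5′ to 3′ on the transcript strand from hg38, with capitals at the 62 positions where they differ.
PKM M1 exon: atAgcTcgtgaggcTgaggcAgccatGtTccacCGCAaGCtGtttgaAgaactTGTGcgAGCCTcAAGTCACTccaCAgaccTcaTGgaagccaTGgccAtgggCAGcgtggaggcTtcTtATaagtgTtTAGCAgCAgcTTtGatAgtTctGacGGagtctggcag
PKM M2 exon: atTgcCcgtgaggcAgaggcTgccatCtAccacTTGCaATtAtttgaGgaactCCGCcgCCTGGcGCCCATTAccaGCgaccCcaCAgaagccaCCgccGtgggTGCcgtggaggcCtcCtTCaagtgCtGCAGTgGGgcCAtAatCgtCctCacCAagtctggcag
The exons were 62.9% identical. Transcripts with the M2 exon carried 30527 and 34476 estimated reads without doxycycline against 35016 and 36315 with it, whereas those with the M1 exon carried 159 and 203 against 207 and 199. The M2 form was thus 99.5% and 99.4% of the TPM of transcripts with either exon in Doxy(-) and 99.4% and 99.5% in Doxy(+), with overlapping groups.

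Pyruvate and lactate are interconverted by tetramers of LDHA and LDHB. LDHA, the muscle-type subunit whose enzyme favours lactate production, is a textbook HIF and MYC target (ENSG00000134333, chr11:18394560-18408425, plus strand). It was at 534 and 533 CPM without doxycycline and at 398 and 400 CPM with it. The libraries of each group lay close together and the groups were well apart. LDHA fell by 0.42 on the log2 scale (edgeR adjusted p = 0.000447, SE 0.03), the smallest adjusted p among the 40 genes. Reads on its annotated pseudogenes were at most 2.86% of the reads of LDHA and those pseudogenes together.

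LDHB, the heart-type subunit (chr12:21635342-21757857, minus strand), was at 832 and 822 CPM without doxycycline and at 936 and 950 CPM with it. It was the higher in Doxy(+), by a log2 fold change of 0.19 (edgeR adjusted p = 0.00599, SE 0.03). The adjusted p was 0.0525 without Doxy(+) 1 and 0.0680 without Doxy(+) 2. LDHA therefore took 37.4% and 38.5% of the summed LDHA and LDHB TPM in Doxy(-) and 28.2% and 27.5% in Doxy(+), 10.1 percentage points less. The TPM ratio of LDHA to LDHB was 0.599 and 0.626 without doxycycline against 0.392 and 0.380 with it. The summed TPM of the pair was 1612 and 1704 without doxycycline against 1652 and 1688 with it, so the composition differed between the groups and the total overlapped. SLC16A1 and SLC16A3, the lactate transporters MCT1 and MCT4, differed by -0.08 and -0.11 on the log2 scale, and neither passed the limit (edgeR adjusted p = 0.243 and 0.163).

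**Figure D3:**
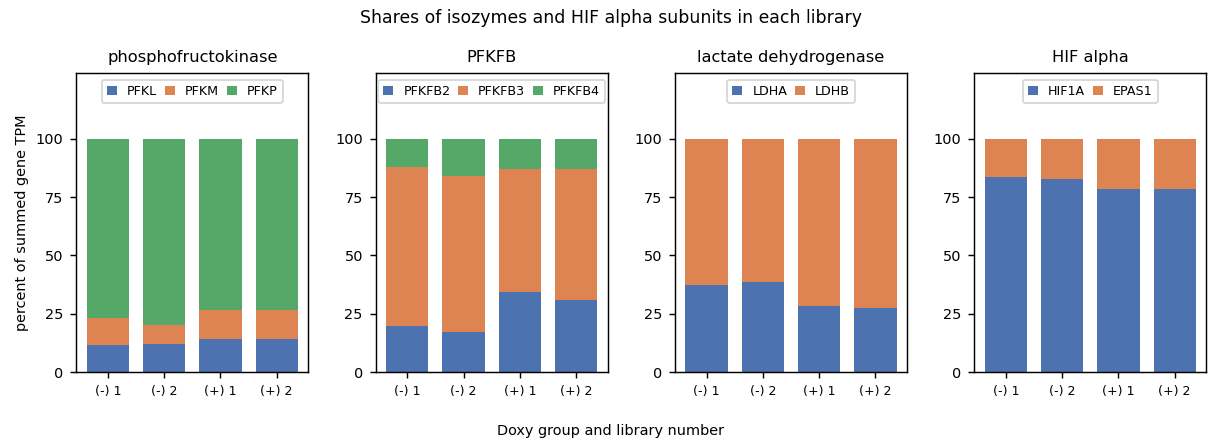
Stacked bars of the percent of the summed TPM of 4 gene families held by each gene in each library, in the order Doxy(-) 1 and 2 and Doxy(+) 1 and 2. LDHA took 37.4% and 38.5% in Doxy(-) against 28.2% and 27.5% in Doxy(+), PFKFB2 19.6% and 17% against 34.2% and 30.8%, and EPAS1 16.2% and 17.4% against 21.7% and 21.7%.

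The promoter of LDHA is printed with those of other changed genes, because PRCC-TFE3 keeps the DNA-binding domain of TFE3, whose relatives bind the letters CACGTG (the E-box), while HIF binds sites built on ACGTG or GCGTG. Windows from 250 bases before to 50 after each annotated start came from RefSeq on GRCh38.p14, and 37 of the 41 genes matched. PFKFB2, SLC16A1, VHL and NDRG1 had no entry. The stretches are from the plus strand, 5′ to 3′, with the motif in capitals. They are the LDHA window at chr11:18394366-18394493, ENO2 at chr12:6914450-6914478, EPAS1 at chr2:46297278-46297306, and PDK2 at chr17:50095210-50095239, a choice made with its values known.
LDHA, CACGTG: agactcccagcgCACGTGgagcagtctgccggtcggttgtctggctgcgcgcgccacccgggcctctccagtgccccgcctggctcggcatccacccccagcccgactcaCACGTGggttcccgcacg
ENO2, ACGTG: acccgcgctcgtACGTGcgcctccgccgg
EPAS1, GCGTG: gggcctgccggcGCGTGcccgcccacaca
PDK2, CACGTG: cccgggggaagcCACGTGccggggcggaag
LDHA had 2 CACGTG motifs, beginning 185 and 87 bases before the start, and it was lower in Doxy(+). PDK2 had CACGTG 129 bases before an annotated start, and it was higher in Doxy(+). On either strand, CACGTG was present in 9 of 66 windows of the 41 genes (13.6%), belonging to 9 genes, against 7.26% of all 35116 windows. Besides LDHA and PDK2, those genes were ALDOA, ALDOC, ANKRD37, GAPDH, HK2, PDHB and PFKFB3, none of which passed the adjusted p limit. TCACGTG was in 2 windows (ALDOA and GAPDH) against 3.71% of all, and CATGTG in 6 windows (9.09%) against 11.1% of all. ACGTG, which also lies inside CACGTG, was in 26 windows (39.4%) against 21.4% of all, and GCGTG in 27 windows (40.9%) against 36.5% of all. Windows of a gene with several starts overlap, so these are descriptions, and a match is not a measured binding site.

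The pyruvate dehydrogenase kinases hold back the conversion of pyruvate to acetyl-CoA inside the mitochondrion. PDK2, the widely expressed kinase (chr17:50094737-50112152, plus strand), was at 16.2 and 18.1 CPM without doxycycline and at 23.9 and 25.6 CPM with it. It was higher in both Doxy(+) libraries, by a log2 fold change of 0.53 (edgeR adjusted p = 0.0152, SE 0.10). This call was lost on length-corrected scales and without 1 library. Without Doxy(+) 2 the value was 0.48 with an adjusted p of 0.0745. With counts rescaled for transcript length the adjusted p was 0.314, and limma on log2 TPM gave 0.281 and 0.284 at pseudocounts of 1 and 0.1. In TPM the groups overlapped, at 14.1 and 24.2 in Doxy(-) and 31.8 and 24.0 in Doxy(+). The estimated reads of PDK2-201 also overlapped, at 136 and 139 in Doxy(-) and 108 and 209 in Doxy(+), while PDK2-204 had 4.02 and 5.83 in Doxy(-) and 39.4 and 44.9 in Doxy(+).

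PDK1, the kinase most closely tied to HIF, was at 20.3 and 21.8 CPM without doxycycline and at 26.2 and 23.9 CPM with it, a log2 fold change of 0.25 that did not pass (edgeR adjusted p = 0.112, SE 0.09). PDK3, a further inducible kinase, had the widest difference, 1.18 (edgeR adjusted p = 0.0831, SE 0.38), at a low level of 0.949 and 1.91 CPM in Doxy(-) and 3 and 3.49 CPM in Doxy(+). Without Doxy(-) 2 the PDK3 value was 1.80 with an adjusted p of 0.0318. PDK4, the kinase induced by fasting, differed by -0.09. PDHA1 and PDHB, subunits of the dehydrogenase itself, and DLAT, the acetyltransferase of the complex, differed by -0.11, -0.05 and 0.03, and none passed the limit.

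In the oxygen-sensing group, EPAS1 was the gene that changed. EPAS1, also called HIF-2 alpha and the driver of VHL-deficient kidney cancer (chr2:46293667-46386697, plus strand), was at 330 and 340 CPM without doxycycline and at 424 and 428 CPM with it. Both Doxy(+) libraries were higher, by a log2 fold change of 0.35 (edgeR adjusted p = 0.00130, SE 0.03). HIF1A, its paralogue, was at 990 and 1068 CPM without doxycycline and at 1053 and 1023 CPM with it, with overlapping groups and a log2 fold change of 0.01 (edgeR adjusted p = 0.867, SE 0.04). EPAS1 accordingly took 16.2% and 17.4% of the summed HIF1A and EPAS1 TPM in Doxy(-) and 21.7% and 21.7% in Doxy(+). The TPM ratio of EPAS1 to HIF1A was 0.194 and 0.211 without doxycycline against 0.277 and 0.277 with it, so HIF1A remained the more abundant RNA in every library. ARNT, the shared partner, VHL, the ubiquitin ligase subunit, and EGLN1 and EGLN3, the prolyl hydroxylases, differed by 0.01, 0.05, -0.06 and -0.04, with edgeR adjusted p between 0.626 and 0.926. EGLN3, itself a sensitive HIF target, was at 4.50 and 4.08 CPM without doxycycline and at 4.19 and 4.17 CPM with it.

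Of the 5 tested targets outside glycolysis, ADM, the vasodilator peptide adrenomedullin (chr11:10305073-10307397, plus strand), was the gene that changed. It was at 20.1 and 18.4 CPM without doxycycline and at 29.6 and 30.3 CPM with it. The Doxy(+) pair was higher by a log2 fold change of 0.64 (edgeR adjusted p = 0.00450, SE 0.08). NDRG1, a stress-induced gene, P4HA1, a collagen prolyl hydroxylase, CA12, a membrane carbonic anhydrase, and ANKRD37 differed by 0.05, 0.09, 0.15 and -0.13, and none passed the limit. ANKRD37, at 1.52 and 2.52 CPM in Doxy(-) and 2.16 and 1.54 CPM in Doxy(+), was too low for a close comparison.

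Across the 30 genes that did not pass, log2 fold changes ran from -1.16 to 1.18. For the 24 of them with a mean of at least 10 CPM in Doxy(-), they ran from -0.12 to 0.25 with standard errors of 0.02 to 0.12. ALDOC, PDK3 and ANKRD37, all lower in level, lay outside that range.

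**Figure D4:**
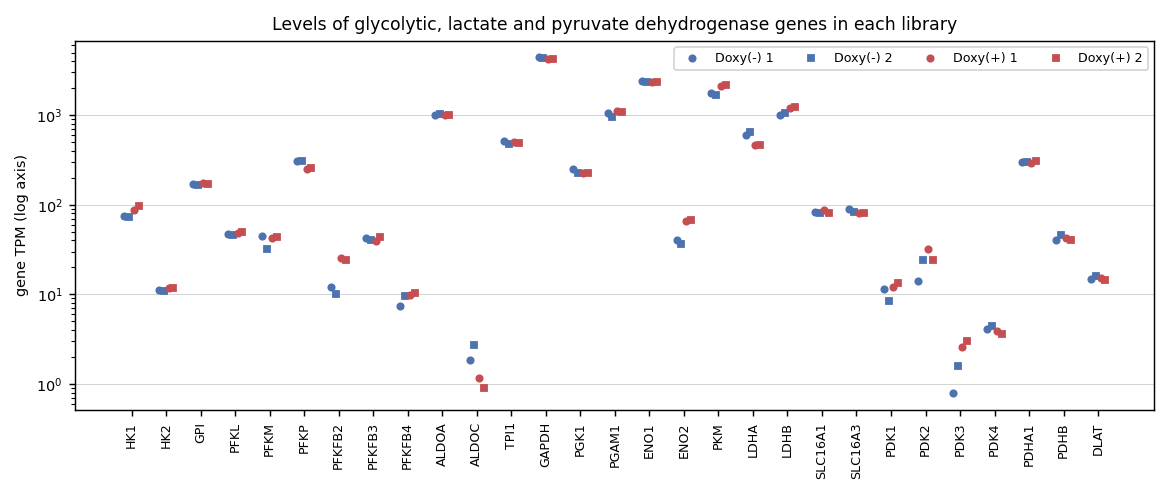
TPM on a log axis for the glycolytic, lactate and pyruvate dehydrogenase genes in pathway order, with blue points for Doxy(-) and red for Doxy(+), circles for library 1 and squares for library 2. GAPDH, ENO1 and PKM lie at the top, the points of most genes nearly coincide, and PFKFB2, ENO2 and LDHA have separate groups.

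Further genes of the same pathways were taken from a list of 69, of which 58 were tested. At the edgeR adjusted p limit 15 were higher and 8 were lower in Doxy(+), 39.7% against 19.3% of all genes, with a median log2 fold change of 0.14. With either Doxy(+) library left out, fewer of them were called higher and fewer lower, and the same held over all genes. HIF1A-AS3 was not analysed here.

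Among other glycolytic isozymes and side branches, 2 of 10 were higher and 1 was lower. HKDC1, a hexokinase-like enzyme, was at 303 and 318 CPM without doxycycline and at 428 and 452 CPM with it, a log2 fold change of 0.50 (edgeR adjusted p = 0.000914, SE 0.04). Its level per length, 141 and 150 TPM in Doxy(-) and 199 and 217 TPM in Doxy(+), was above that of HK1 in every library, where HK1 was at 74.7 and 73.1 TPM and at 87.8 and 97.9 TPM. ENO3, the muscle enolase, fell by 0.55 on the log2 scale (edgeR adjusted p = 0.0129), from 34.3 and 31.4 CPM to 24.0 and 20.8 CPM. BPGM, which makes 2,3-bisphosphoglycerate, rose by 0.60 (edgeR adjusted p = 0.0322). Of 4 tested gluconeogenic genes 1 was higher, PCK2, the mitochondrial phosphoenolpyruvate carboxykinase (log2 fold change 0.28, edgeR adjusted p = 0.0365), where DESeq2 called 1 gene, limma 0, and 1 had an unadjusted p under 0.05.

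For pyruvate import and dehydrogenase regulation, 3 of 7 were higher and 0 were lower by edgeR, where DESeq2 and limma called 3 and 2 in all and 3 had an unadjusted p under 0.05. PDP2, a phosphatase that opposes the PDK kinases, was at 23.3 and 23.5 CPM without doxycycline and at 36.8 and 37.3 CPM with it, a log2 fold change of 0.66 (edgeR adjusted p = 0.00181, SE 0.07). PDK2 and its opponent PDP2 were thus both called higher in Doxy(+) by edgeR, but the PDK2 call was lost on length-corrected scales. PDP1, a more abundant phosphatase of the same kind, was at 161.6 and 165.1 CPM without doxycycline and at 158.1 and 153.8 CPM with it. Its log2 fold change was -0.07 (edgeR adjusted p = 0.287). MPC2, a subunit of the mitochondrial pyruvate carrier, rose by 0.32 (edgeR adjusted p = 0.00269). PDPR, a regulator of pyruvate dehydrogenase phosphatase, rose by 0.17 (edgeR adjusted p = 0.0425).

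Of 8 other HIF pathway components, EGLN2, a prolyl hydroxylase, and CITED2, which competes with HIF for its coactivators, were higher, by 0.28 and 0.20 (edgeR adjusted p = 0.0145 and 0.0211), where DESeq2 called 2 genes and limma 0, 2 had an unadjusted p under 0.05, and none was lower by edgeR. Of 29 other hypoxia-induced genes, 7 were higher and 7 were lower by edgeR, 48.3% against 19.3% of all genes tested. DESeq2 called 10 of them and limma 3 and 4 at pseudocounts of 1 and 0.1. Over all genes edgeR called 1325 higher and 1293 lower, and DESeq2 called 1076 and 1193. There limma called 598 and 306 at a pseudocount of 1 and 590 and 299 at 0.1. The number called thus depended on the method, both in these 29 genes and over all genes. P4HA2, a collagen prolyl hydroxylase, was at 331 and 326 CPM without doxycycline and at 178 and 180 CPM with it, a log2 fold change of -0.87 (edgeR adjusted p = 8.05e-05, SE 0.03). P4HA2 was lower in both Doxy(+) libraries, as were the glucose transporter SLC2A1 (GLUT1) and the angiogenic factor VEGFA. SLC2A1 fell by 0.38 (edgeR adjusted p = 0.00197) and VEGFA by 0.54 (edgeR adjusted p = 0.00280) on the log2 scale. The gene higher past both limits was RORA, a nuclear receptor named after its values were seen, at 0.776 and 1.04 CPM in Doxy(-) and 2.12 and 2.61 CPM in Doxy(+) (log2 fold change 1.37, edgeR adjusted p = 0.0400).

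**Figure D5:**
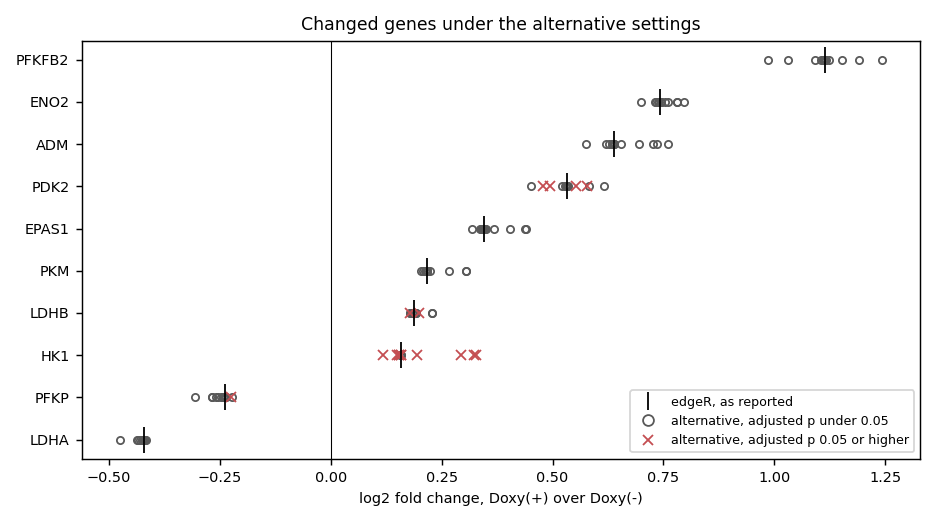
Log2 fold change of Doxy(+) over Doxy(-) for the 10 changed genes, with a vertical mark for the edgeR value as reported, circles for alternatives with an adjusted p under 0.05 and red crosses for those at or above it. The sign of each gene is the same under all 14 alternatives, ADM, ENO2, EPAS1, LDHA, PFKFB2 and PKM have circles throughout, and HK1 has the most crosses.

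The calls of ADM, ENO2, EPAS1, LDHA, PFKFB2 and PKM stood in all 14 alternatives tried. LDHA ranged from -0.47 to -0.42, PKM from 0.20 to 0.30, EPAS1 from 0.32 to 0.44, ADM from 0.57 to 0.76, ENO2 from 0.70 to 0.80 and PFKFB2 from 0.99 to 1.24 on the log2 scale. The calls of LDHB, PFKP, PDK2 and HK1 stood in 12, 13, 9 and 3 of them.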

How the data were processed

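RNA sequencing of 2 Doxy(-) and 2 Doxy(+) libraries was used, grouped by the labels' treatment. The study's methods and the submitters' processing notes name Trim Galore 0.6.6, cutadapt 2.5, STAR 2.7.9a on hg38 and RSEM, while the files have the column layout of kallisto. The Ensembl release and the strand setting of the counting are not given in the sources used here. The deposited estimated counts are expected counts per transcript, not normalized, and the deposited TPM values were scaled to 1000000 per library by the authors' quantifier. Of 180253 transcript identifiers, 150691 (83.6%) matched GENCODE release 44 and were summed over 34080 genes. The others held 9.66% to 9.89% of counts and were left out.

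After rounding to whole numbers, gene counts went into edgeR 4.0.16 under R 4.3.3 (glmQLFit and glmQLFTest, TMM, filterByExpr, group as the only term), Doxy(+) over Doxy(-), two-sided, with Benjamini-Hochberg adjustment over 13569 genes and a limit of 0.05. The fold limit was a log2 fold change of 1. The SE is the one implied by the F statistic, and the common biological coefficient of variation was 6.53%. Alternatives used DESeq2 1.42.0, limma 3.58.1 on log2(TPM + 1) and log2(TPM + 0.1) for genes with a mean of at least 1 TPM, RLE size factors, other filters, length-scaled counts, unmatched copies added, each library left out, a replicate block and a limit of 0.01. The code was tested on simulated data.

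All 41 genes are accounted for by role. Values of every library are given for genes past the adjusted p limit and for isozyme families described, and at most 4 genes per group of the further list are named, by smallest p. For 1 gene that this rule picks, no result is reported here. The rule for the 41 genes uses no measured value, but it, the lists and the motifs were written with earlier results of these data known, so the choice was not independent of the data. Nothing in the labels says that the libraries of a group came from separate cultures, so p-values measure only the spread between these libraries, which may be technical. A chi-square over genes gave 2.91 and 4.03 per degree of freedom within groups and 18.2 to 20.2 between them. Intervals and the limit of 3 counts for a count of 0 cover counting error only. Of the 41 genes, 11 have exons overlapping another gene, 16 have annotated pseudogenes and 5 have unmatched copies, and their reads may be divided.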

Additional observations from a re-analysis of the deposited data

How the results depend on the processing

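For the 10 genes that changed, 121 of 140 values under the 14 alternatives kept the call, 19 kept the direction without the call, and 0 reversed. For the 30 others, 368 of 420 values stayed on their side, 6 gained a call and 46 reversed around 0. The 14 include the limit of 0.01, which reuses the reported fit and so could reverse no sign and add no call. Counts rescaled for length gave 677 higher and 583 lower genes over all genes, 6 higher and 5 lower in the further list, and a median of -0.0212 over the 40 genes. Limma gave 598 and 306 over all genes and 5 and 2 in the further list at a pseudocount of 1, and 590 and 299 and 5 and 3 at 0.1, with medians of 0.021 and 0.0216. The limit of 0.01 gave 621 and 554 over all genes and 4 higher in the further list, by its own construction. Without the low-count filter the median was 0.0022. The difference in ENO2 share, 1.15 percentage points in TPM, was 1.38 in CPM and 2.22 with copies added. With 1 library left out, genes over all ranged from 647 to 1233 higher and from 565 to 1308 lower, the 41 genes from 5 to 9 higher and from 1 to 4 lower, the further list from 4 to 11 higher and from 5 to 8 lower, and the median from 0.0119 to 0.024. Except for the stricter limit and the smaller number of libraries, the cause was not tested.

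Values of genes without a call that changed sign were, for length-scaled counts, GPI -0.0033, PFKL 0.0459, PFKFB3 -0.0162, PFKFB4 0.21, DLAT -0.0974, VHL -0.0581, HIF1A -0.047, ARNT -0.0264, CA12 -0.178 and NDRG1 -0.0085. Limma at a pseudocount of 1 gave PFKL 0.0797, PFKFB4 0.231, SLC16A1 0.0341, DLAT -0.0536, VHL -0.0205, EGLN1 0.0239, HIF1A -0.0102 and CA12 -0.0973. At 0.1 it gave PFKL 0.0812, PFKFB4 0.254, SLC16A1 0.0345, DLAT -0.0567, VHL -0.0211, EGLN1 0.0248, HIF1A -0.0102 and CA12 -0.128. PFKFB3 was -0.0014 with RLE, -0.0082 without the filter and -0.0035 with DESeq2. With 1 library left out the ranges were -0.0301 to 0.0273 for PFKFB3, -0.152 to 0.0989 for PFKFB4, -0.0333 to 0.0237 for ALDOA, -0.0881 to 0.0061 for TPI1, -0.0418 to 0.0982 for DLAT, -0.146 to 0.0237 for EGLN1, -0.106 to 0.0307 for EGLN3, -0.045 to 0.0679 for HIF1A, -0.013 to 0.0323 for ARNT, -0.433 to 0.265 for ANKRD37 and -0.0143 to 0.115 for NDRG1. In these fits the lone library of a group is assumed to vary like the other group. The labels do not say whether the replicate numbers pair the libraries. The correlation of same-numbered deviations was -0.015, so no shared deviation was seen. An edgeR fit with the replicate block called 7 higher and 2 lower of the 40 genes, and 1282 higher and 1259 lower over all genes. In that fit the call of HK1 was lost (edgeR adjusted p = 0.0510). Depth limits genes near 1 CPM such as ALDOC, PDK3 and ANKRD37, since 3 counts are 0.204 to 0.233 CPM.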
